A study of Rattus norvegicus with 71 samples.

Results

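5-Fluorouracil at 1 µM was compared with its own 0 µM libraries in rat cortical cultures. The comparison was defined by the sample titles, and it held 5 of the 71 sequenced libraries, 3 at 1 µM and 2 at 0 µM. Every other library entered only as part of the shared estimate of the spread, or where it is named. The cells were primary cortical cells of the rat, labelled as cortical neurons, grown in multi-well plates with built-in electrodes. The labels state no strain, sex or age. Wells received vehicle or 5-Fluorouracil from 2 h after plating, with fresh solution on days 5, 7 and 9. Each library was a pool of 2 to 3 wells with the same treatment, from 2 separate cultures. Which culture a library came from was not given, so p-values measure the spread between these pools.

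The libraries carried 1 of a pair of project codes in their titles, GRC321 or GRC327. Both 0 µM libraries were GRC327, as were replicates 2 and 3 at 1 µM, while replicate 1 at 1 µM was GRC321. The comparison was therefore fitted for all libraries, in a fit with a project term for each compound, and again for GRC327 alone, where it was 2 against 2. For 5-Fluorouracil the project term in the first fit came from its 0.1, 0.3 and 1 µM libraries. Levels are library-scaled counts (CPM) after TMM scaling, and changes are log2 fold changes with their standard error (SE). A gene was called when its Benjamini-Hochberg adjusted p in edgeR's quasi-likelihood test was under 0.05.

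5-Fluorouracil is a uracil analog used against tumours. Cells turn it into a nucleotide that blocks thymidylate synthase, the enzyme that makes the thymidine nucleotide for DNA, and into forms that enter RNA and DNA. In the developing cortex, neurons have left the cell cycle, whereas oligodendrocyte precursors go on dividing. These precursors carry the growth factor receptor Pdgfra and the proteoglycan Cspg4, pass through a committed stage marked by Gpr17 and Bcas1, and then make myelin proteins such as Mbp and Mag.

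Total counts were 12.67 M and 16.49 M at 0 µM, and 11.70 M, 9.32 M and 10.00 M at 1 µM. The libraries at 0 µM correlated at 0.987 across genes (Pearson, log2 of CPM + 1), GRC327 replicates 2 and 3 at 1 µM at 0.990, and the GRC321 library with the other 4 at 0.953 to 0.963. Mitochondrial transcripts made up 5.49% of the GRC321 library and 2.38% to 2.94% of the other 4. The cultures held neurons and glia by their markers, and markers of microglia were near 0: the 14 that the table listed summed to 0.827 to 1.59 CPM in the 5 libraries, and Aif1, C1qa, Ptprc and Laptm5 were at 0 in all of them. The 0 µM replicate 2 stood apart in markers of choroid plexus and ependyma, whose 10 listed genes summed to 25.5 CPM there and to 2.53 to 3.21 CPM in the other 4 libraries. That library held the highest sum of all 16 0 µM libraries of the series, and the part of this difference in the results was not tested.

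Against its own 0 µM libraries, 5-Fluorouracil at 1 µM had many more genes called lower than higher. Of 15343 genes tested, 619 were called, or 4.03%, with 106 higher (0.691%) and 513 lower (3.34%). Within GRC327 alone 618 of 15402 were called (4.01%), 119 higher (0.773%) and 499 lower (3.24%). The 2 fits shared 515 called genes, all of them with the same sign, of which 72 were higher and 443 lower. The falls were also the larger changes. Among genes called lower the median was −1.08, with 289 at a fall of at least 1 on the log2 scale, 104 at a fall of at least 2 and 57 at a fall of at least 3. Among genes called higher the median was 0.58, and 13 reached a rise of at least 1. Over all genes tested the median was 0.01. Leaving out each of the 5 libraries in turn, 203 genes stayed called lower every time and 14 stayed called higher. The count of calls was 346 without 1 µM replicate 3, 389 without 0 µM replicate 2, 406 without 1 µM replicate 2, and 421 and 654 without the other 2.

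**Figure D1:**
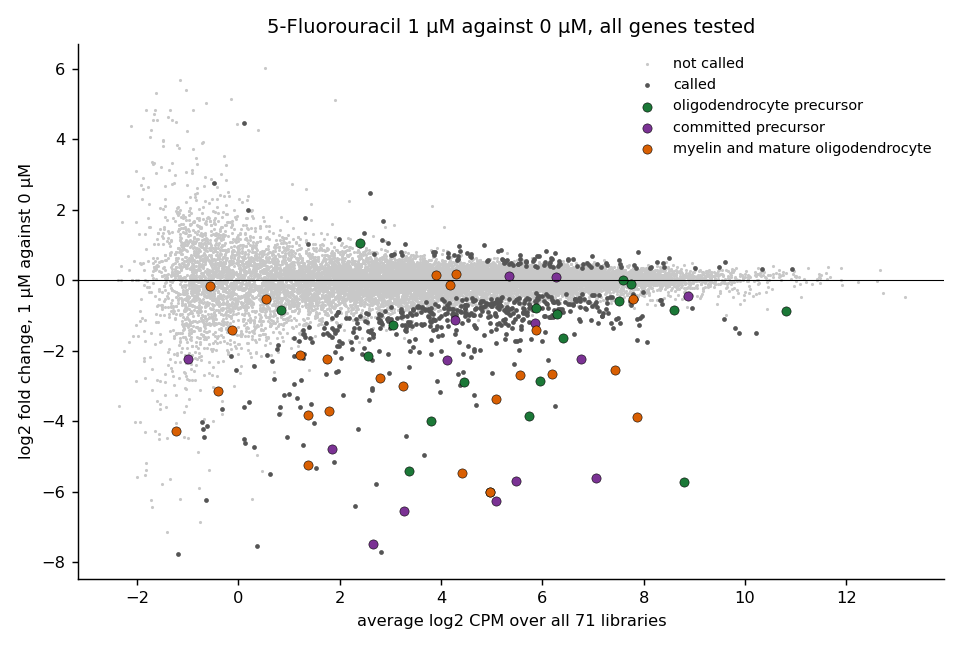
Log2 fold change at 1 µM against 0 µM (vertical axis) for all 15343 genes tested, against the average log2 CPM over the 71 libraries (horizontal axis). Dark points are the 619 called genes, and coloured points are the tested members of the 3 oligodendrocyte lists, most of which lie far below 0.

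The GRC321 library at 1 µM had no 0 µM partner for this compound, so it was also set against the 5 GRC321 0 µM libraries of the other compounds. This comparison shares no library with the one within GRC327. Of the 494 genes lower within GRC327 that were tested there, 473 (95.7%) had the same sign in the GRC321 library, with a median of −0.87 beside −1.13 within GRC327. Of 117 higher genes, 94 (80.3%) had the same sign, with a median of 0.30 beside 0.60. Among 13785 genes not called within GRC327 the share was 59.3%. The single GRC321 library gave 228 calls of its own, or 1.57% of those tested, 63 higher (0.434%) and 165 lower (1.14%). Against all 16 0 µM libraries of the series, 2477 genes were called (16.1%), 1175 higher (7.66%) and 1302 lower (8.49%). The excess of lower calls was thus smaller with these controls.

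Genes of the oligodendrocyte lineage were among the steepest falls, from precursor to myelin stage. Of 61 genes in 3 lists of this lineage, 56 passed the filter on low counts and 39 were called lower, with none higher and a median of −2.22. The background of genes called lower was 3.34%. Within GRC327 alone, 39 of 57 were lower and the median was −2.29. In bulk RNA, fewer cells of a type and less RNA per cell cannot be told apart.

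Of 19 tested precursor genes, 15 were called lower, with a median of −1.27, and 14 within GRC327. Pdgfra, the receptor for the platelet-derived growth factor that drives division of these cells, stood at 541 and 488 CPM at 0 µM. At 1 µM it stood at 8.81 CPM in the GRC321 library and at 16 and 6.02 CPM in the GRC327 pair. All 3 treated libraries lay far below both 0 µM libraries and below the 467 to 637 CPM of the 16 0 µM libraries of the series. Its change was −5.73 ± 0.23 (adjusted p = 5e-25), and −5.54 within GRC327 (8.2e-14). Cspg4, the surface proteoglycan NG2, went from 88.9 and 74.7 CPM to 2.23, 8.58 and 3.40 CPM, a change of −3.86 ± 0.27 (1.6e-15), and −3.77 within GRC327. The homeodomain factor gene Nkx2-2 went from 14.1 and 14.8 CPM to 0.484, 1.55 and 0.777 CPM, a change of −3.99 ± 0.35 (1.3e-12), and −3.63 within GRC327. For both genes every treated library was low, and the groups did not overlap.

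Other precursor genes fell less. Olig2, a lineage factor that other glial precursors also use, was at 136 and 90.0 CPM at 0 µM and at 32.2, 34.4 and 29.2 CPM at 1 µM. It changed by −1.63 ± 0.24 (adjusted p = 3.7e-06), and by −1.82 within GRC327. Its close relative Olig1 changed by −0.94 ± 0.24 (0.011), but had an adjusted p of 0.082 without 1 µM replicate 3 and 0.11 without 0 µM replicate 1. Ptprz1, a receptor phosphatase that astrocytes also carry, went from 1993 and 1844 CPM to 1578, 1008 and 1009 CPM, a change of −0.86 ± 0.17 (0.00038). The protocadherin gene Pcdh15 (−2.88 ± 0.23) and the complement-like gene C1ql1 (−2.15 ± 0.36) lay between. The 4 members not called were Susd5 (−0.83), Cacng4 (−0.10), Cspg5 (0.01) and Emid1 (1.06), of which Cacng4, Cspg5 and Emid1 had adjusted p values of 0.71, 0.99 and 0.092.

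The RefSeq promoter windows, on the GRCr8 build, are shown for the 4 oligodendrocyte genes with the smallest p that have one. They hold 250 bases before the first transcribed base and 50 from it on, and are written along the gene. Capitals mark matches, on either strand, to ACAAAG or ACAATG, cores bound by Sox proteins, or to the E-box CAGCTG.
Pdgfra, chr14:33408467-33408766, minus strand: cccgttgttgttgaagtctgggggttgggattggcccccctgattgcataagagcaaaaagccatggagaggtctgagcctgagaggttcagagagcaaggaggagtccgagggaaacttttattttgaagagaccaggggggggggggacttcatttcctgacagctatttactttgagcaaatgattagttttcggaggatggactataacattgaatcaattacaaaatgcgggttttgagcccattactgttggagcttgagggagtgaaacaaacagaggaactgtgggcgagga
Gpr17, chr18:23857332-23857631, minus strand: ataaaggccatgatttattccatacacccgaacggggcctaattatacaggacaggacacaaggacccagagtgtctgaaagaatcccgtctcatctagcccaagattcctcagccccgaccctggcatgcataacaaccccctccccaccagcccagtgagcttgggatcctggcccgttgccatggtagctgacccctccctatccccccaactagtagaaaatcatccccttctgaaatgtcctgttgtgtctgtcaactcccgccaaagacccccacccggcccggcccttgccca
Cspg4, chr8:66160692-66160991, plus strand: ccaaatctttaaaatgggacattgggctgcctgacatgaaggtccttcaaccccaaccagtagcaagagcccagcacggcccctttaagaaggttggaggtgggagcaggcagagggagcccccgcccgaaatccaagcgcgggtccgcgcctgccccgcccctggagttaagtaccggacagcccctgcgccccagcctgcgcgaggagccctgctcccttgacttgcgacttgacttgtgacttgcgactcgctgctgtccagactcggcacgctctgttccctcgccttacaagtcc
Bmp4, chr15:22101884-22102183, minus strand: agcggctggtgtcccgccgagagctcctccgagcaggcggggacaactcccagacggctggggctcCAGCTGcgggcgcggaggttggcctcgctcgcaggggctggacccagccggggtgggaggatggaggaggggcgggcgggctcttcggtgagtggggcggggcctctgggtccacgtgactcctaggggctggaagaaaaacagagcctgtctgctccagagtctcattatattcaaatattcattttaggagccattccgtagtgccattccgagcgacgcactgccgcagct
The single match was a CAGCTG in the Bmp4 window. ACAAAG was in 18.3% of 27457 RefSeq windows of this length, ACAATG in 13% and CAGCTG in 15.1%. Of the 28 oligodendrocyte genes called lower that had a window, 8 held ACAAAG, 2 held ACAATG and 6 held CAGCTG. The matches are letters in a window and nothing more was read from them.

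Genes of the committed stage included the steepest falls of the lineage lists. Of 14 tested, 10 were called lower, with a median of −2.24, and the same number within GRC327. Gpr17, a receptor of newly committed cells, was at 48.2 and 50.3 CPM at 0 µM and at 0.194, 1.34 and 0.0972 CPM at 1 µM, a change of −6.25 ± 0.42 (adjusted p = 3.6e-16). Its gene model overlaps Lims2, as those of Sox10, Matn4, Mog, Srebf1, Cers2, Tnr and Timp1 overlap another gene, and the use of strand in counting is not stated in the labels, so these counts may include reads of the neighbour. Bcas1, a marker of cells about to make myelin, went from 205 and 210 CPM to 1.07, 5.69 and 3.40 CPM, a change of −5.60 ± 0.32 (7.6e-19). Its treated libraries lay below the 62.8 CPM that was the lowest of the 16 0 µM libraries. Matn4, a matrix protein gene of the precursor list, had 8 counts left of 415, and Cldn11, a tight junction gene of myelin that was in no list, changed by −5.46 ± 0.60. Plxnb3, a semaphorin receptor, changed by −5.68 ± 0.45, and the zinc finger factor Zfp488 by −4.77 ± 0.55.

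Further members of this list fell less steeply. Tcf7l2, a Wnt-pathway factor that times differentiation, was at 19.8 and 16.8 CPM and then at 5.52, 4.03 and 3.89 CPM, a change of −2.27 ± 0.26 (adjusted p = 3.5e-09). Tns3, a focal adhesion gene, went from 133 and 152 CPM to 24.3, 29.1 and 29.7 CPM (−2.22 ± 0.23). Sirt2, a deacetylase gene, changed by −1.20 ± 0.23 and Itpr2, a calcium channel of the endoplasmic reticulum, by −1.12 ± 0.23. Tcf7l2, Tns3, Sirt2 and Itpr2 were called in each of the 5 fits that left out a library. Fyn, a kinase that neurons also use, stood at −0.45 (0.053), and Rras2 and Dscam stood at 0.09 and 0.13. Enpp6 and Bmp4, a choline phosphodiesterase and a secreted growth factor, had 1 and 3 counts left in the 3 treated libraries together, against 250 and 367 at 0 µM. Their 0 µM to 1 µM ratios were 250.9 (95% counting interval 44.6 to 9950.1) and 123 (41.7 to 598).

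Myelin genes fell by a median of −2.66 over 24 tested, with 15 called lower and 16 of 25 within GRC327. Mbp, the protein that compacts the sheath, went from 71 and 121 CPM to 9.39, 15.2 and 15.9 CPM, a change of −2.65 ± 0.39 (adjusted p = 3.4e-06). Its treated libraries lay below all 16 0 µM libraries. Myrf, the regulator that switches on myelin genes, went from 65.8 and 74.7 CPM to 8.04, 10.9 and 8.94 CPM (−2.67 ± 0.21, 1.2e-13). Cnp, an enzyme of the myelin sheath, went from 225 and 234 CPM to 43.3, 37.4 and 32.4 CPM (−2.54 ± 0.22). Ugt8 and Fa2h, enzymes of myelin lipids, changed by −3.37 ± 0.28 and −3.70 ± 0.45, and Mag, an adhesion protein facing the axon, by −2.78 ± 0.47. Dusp15, a phosphatase gene, changed by −1.41 ± 0.22 in the main comparison and by −1.54 within GRC327, and stood at −0.04 in the GRC321 library, a difference between projects that was not tested.

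The steepest fitted fall of the named genes was outside these lists. Pnlip, a lipase gene, was at 7.67 and 12.3 CPM and then at 0, 0.103 and 0 CPM, with 1 count left against 310 at 0 µM, and called in both fits (adjusted p = 2.3e-10). Its ratio of 0 µM to 1 µM was 311.1, with a 95% counting interval from 55.4 to 12329.

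Not all genes of the myelin list moved. Mog, a glycoprotein on the outer face of the sheath, was at 12.1 and 17.6 CPM and then at 22.9, 14.6 and 17.7 CPM, a change of 0.17 ± 0.17 (adjusted p = 0.71). Tf and Gpr37 stood at 0.16 (0.81) and −0.13 (0.83), and Tspan2 at −0.54 (0.13). Their groups overlapped, except in Tspan2. The low-level genes Nkx6-2, Gjc3, Ermn and Aspa, each under 3 CPM, were not called either, although Gjc3 passed within GRC327 (0.041). Opalin, Gjb1 and Hapln2 were too low to test with all libraries, at 1, 14 and 3 counts at 0 µM and none at 1 µM.

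**Figure D2:**
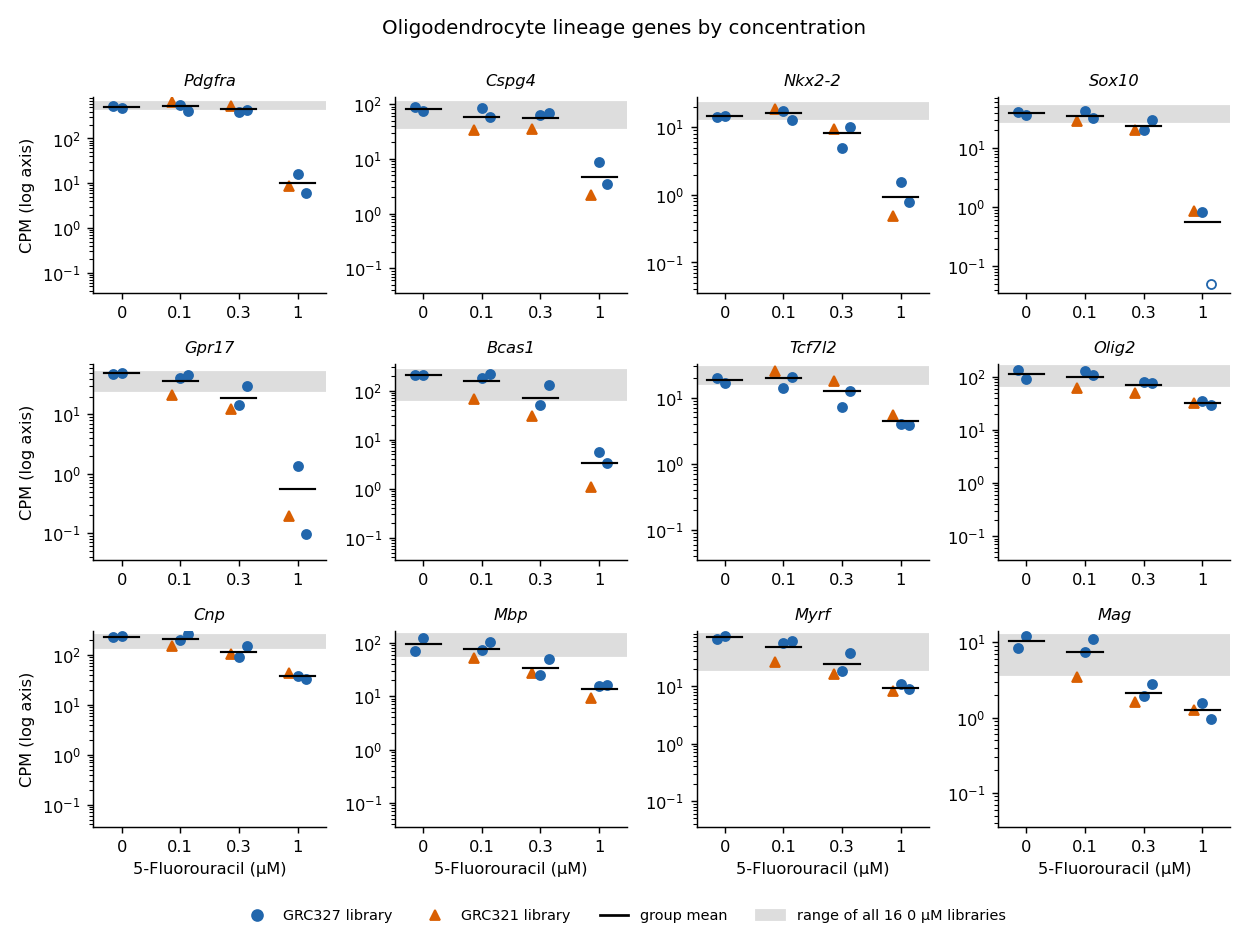
CPM on a log axis for 12 oligodendrocyte genes in every 5-Fluorouracil library, by concentration. Circles are GRC327 and triangles GRC321 libraries, bars are group means, the grey band is the range of all 16 0 µM libraries, and an open symbol marks 0 counts, drawn at the foot of the axis. All 3 libraries at 1 µM lie below the band in each panel.

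The lower concentrations used the same 0 µM libraries, so their values are set beside those at 1 µM without a comparison. With 0.3 µM, 7 genes passed (0.0456%). A single one was higher (0.00652%), and the 6 lower ones (0.0391%) were all in the myelin list, whose median was −1.17. Myrf changed by −1.32 at 0.3 µM (adjusted p = 0.00021), and Ugt8 by −1.33 (0.0096). The precursor and committed lists had medians of −0.28 and −0.86 at 0.3 µM. Pdgfra stood at −0.30 at 0.3 µM and −0.03 at 0.1 µM, and Bcas1 at −1.19 (0.05 after rounding, not called) and −0.05. At 0.1 µM a single gene was called, higher (0.00652%), and the medians of the 3 lists were −0.05, −0.06 and −0.23.

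Sox genes, which include regulators of glial development, were called lower in 5 of 11 tested, beside 3.34% of all genes. It was 5 of 10 within GRC327, and 5 in each fit that left out a library. Sox10 is also counted in the precursor and myelin lists and Sox9 in the astrocyte list, so this count repeats calls of those lists. Sox10, needed for myelin gene expression, was at 41.4 and 36.3 CPM, then at 0.871 and 0.827 CPM in replicates 1 and 2 and at 0 in replicate 3, a change of −5.99 ± 0.39 (adjusted p = 2e-16). Sox8, its close relative, went from 76.6 and 42.8 CPM to 13.1, 7.86 and 7.48 CPM (−2.84 ± 0.23). Sox6, named after its values were seen, changed by −1.28 ± 0.22. Sox2, a factor of neural progenitors and glia, was at 60.5 and 46.9 CPM at 0 µM and at 56.8 CPM in the GRC321 library against 27.4 and 24.2 CPM in the GRC327 pair. The raw levels of Sox2 therefore overlapped, yet the GRC321 0 µM libraries of the other compounds held 99.7 to 125 CPM, so the GRC321 library was low for its project. Its change was −1.04 ± 0.16 (7.3e-06), −1.05 within GRC327 and −1.02 for the GRC321 library. Sox9, an astrocyte and precursor factor, followed the same layout, at 42.1 and 37.8 CPM, then 43.7 CPM in GRC321 and 20.2 and 19.9 CPM in GRC327, beside 70.6 to 126 CPM in the GRC321 0 µM libraries. It changed by −0.98 ± 0.19 (0.00041) and by −0.99 within GRC327.

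Guidance genes of the semaphorin and plexin family were split, with 7 lower and 1 higher of 29 tested. Over all genes 3.34% were lower and 0.691% higher. Within GRC327, 5 of the family were lower and 2 higher. Without 0 µM replicate 2, 4 were lower. Those named here apart from Plxnb3 were picked after their values were seen. Sema3d, a secreted guidance cue, went from 31.5 and 28.0 CPM to 3.58, 2.90 and 1.94 CPM (−3.54 ± 0.31, adjusted p = 1.9e-12). Sema5a, a membrane-bound cue, went from 197 and 211 CPM to 95, 73.6 and 104 CPM (−1.20 ± 0.17). Plxnd1, a semaphorin receptor, was the member called higher, from 85.3 and 91.8 CPM to 114, 139 and 135 CPM (0.60 ± 0.12, 0.00055). None of the 3 had overlapping groups.

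Astrocyte genes shifted down by less and with fewer calls. Of 29 tested, 5 were called lower and none higher, beside 3.34% of all genes called lower. The median was −0.42, and 26 were below 0. Within GRC327, 6 were lower, beside 3.24% of all genes, and the median was −0.53. Without 1 µM replicate 1 there were 7, without 1 µM replicates 2 and 3 there were 2 and 1, and without 0 µM replicates 1 and 2 there were 2 and 3. DESeq2 called 8, and 14 were lower against all 16 0 µM libraries, where 8.49% of all genes were. Sox9, described above, was called in every fit that left out a library. Gfap, the intermediate filament of astrocytes, was at 377 and 197 CPM and then at 64.4, 95.5 and 65.5 CPM (−1.75 ± 0.43, adjusted p = 0.0069), with 0.23 without 0 µM replicate 1 and 0.095 without 1 µM replicate 3. Fabp7, a lipid carrier of radial glia, was at 1918 and 879 CPM and then at 355, 444 and 406 CPM (−1.49 ± 0.34, 0.0041), with 0.34 without 0 µM replicate 1 and 0.056 and 0.081 without 1 µM replicates 2 and 3. For both genes the treated libraries were low, and the 0 µM pair differed widely from each other.

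Aqp4, the astrocyte water channel gene, was at 660 and 923 CPM at 0 µM, at 587 CPM in the GRC321 library and at 285 and 324 CPM in the GRC327 pair at 1 µM. With all libraries its change was −1.09 ± 0.33, called at an adjusted p that rounds to 0.05. It was −1.37 (adjusted p = 0.022) within GRC327 and −0.35 for the GRC321 library. The difference between the projects was not tested. The call ended in each fit that left out a library other than 1 µM replicate 1, with adjusted p between 0.059 and 0.41. Gja1, the gap junction gene, stood at −0.79 ± 0.23 (0.038), and lost its call in the same 4 fits, at 0.14 to 0.24.

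Progenitor and Notch pathway genes also included falls, beside 3.34% of all genes called lower. Of 10 tested progenitor genes 4 were called lower, and of 32 genes of Notch, BMP and Id signalling 7 were lower, 6 within GRC327, with medians of −0.58 and −0.52. Bmp4 and Btg2, counted here, also belong to the committed precursor list and the p53 list. Without 0 µM replicate 2 a single progenitor gene and 4 of the Notch list passed, without 1 µM replicate 2 it was 2 and 3, and without 1 µM replicate 3 it was 3 and 2. Notch1, a receptor of glial and progenitor cells, went from 78.5 and 73.6 CPM to 17.2, 28.1 and 29.7 CPM, a change of −1.47 ± 0.21 (adjusted p = 9.9e-07) that was called in every fit that left out a library. The Delta-like gene Dll3 was at 2.43 and 1.88 CPM and then at 0, 0.414 and 0.0972 CPM (−3.22 ± 0.73, 0.0034), with 0.09 without 1 µM replicate 3. The Notch ligand gene Dll1 changed by −0.92 ± 0.25 (0.019), which was not called without 1 µM replicate 2 (0.17), 1 µM replicate 3 (0.053) or 0 µM replicate 1 (0.22). Vim, a filament gene of progenitors and glia, changed by −1.12 ± 0.28 (0.011), with 0.18 without 1 µM replicate 2 and 0.29 without 0 µM replicate 2.

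Matrix genes moved both ways. Of 28 tested, 7 were called lower and 2 higher, beside 3.34% and 0.691% of all genes, with a median of −0.41. Within GRC327, 5 were lower and 1 higher, and without either 0 µM library 4 were lower. Each fit that left out a library kept 1 higher gene. Bcan, the proteoglycan brevican made by glia, went from 303 and 313 CPM to 82.6, 134 and 118 CPM (−1.10 ± 0.21, adjusted p = 0.00026). Tnr, a matrix protein around oligodendrocytes and neurons, went from 448 and 546 CPM to 187, 273 and 265 CPM (−0.84 ± 0.17, 0.00067), and had 0.058 without 0 µM replicate 2. The aggrecanase gene Adamts4, low throughout at 2.73 and 2.88 CPM, was at 0.484, 0.621 and 0.680 CPM at 1 µM (−2.11 ± 0.51, 0.0063). These groups did not overlap. Adamts15, another protease that cuts such proteoglycans, rose instead, from 4.56 and 5.82 CPM to 9.68, 17.7 and 18.1 CPM (1.69 ± 0.26, 8e-06; 1.78 within GRC327). Its GRC321 library was the lowest of the treated ones but still above the 3.86 to 6.90 CPM of all 0 µM libraries.

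Genes of reactive glia fell in 5 of 19 tested, beside 3.34% of all genes called lower, and in 4 of 20 within GRC327. Their median with all libraries was −1.04. Without 0 µM replicate 1 the count was 2, and without 1 µM replicate 2 it was 3. S1pr3, a sphingosine phosphate receptor, went from 45.4 and 47.1 CPM to 14.8, 15.6 and 12.6 CPM (−1.69 ± 0.23, adjusted p = 3e-07). Osmr, the oncostatin M receptor, went from 6.99 and 4 CPM to 1.26, 1.34 and 1.07 CPM (−2.25 ± 0.45, 0.00056). Both were called in every fit that left out a library. Timp1, a protease inhibitor, was called with all libraries (−2.07 ± 0.44, 0.0014), but its 0 µM libraries were unlike, at 9.88 and 2.41 CPM, and its adjusted p was 0.52 without 0 µM replicate 1. Of 17 interferon genes none was called by edgeR or DESeq2 against the compound's own 0 µM libraries. In this list 2 had an unadjusted p under 0.05, and the median was −0.55. Against all 16 0 µM libraries 1 was higher and 2 lower, where 7.66% and 8.49% of all genes were.

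The lists of metabolic and stress genes are read beside the 3.34% of all genes called lower. Srebf1, a regulator of lipid synthesis, went from 299 and 263 CPM to 120, 144 and 89.3 CPM (−1.11 ± 0.21, adjusted p = 0.00033), and was 1 of 2 genes lower among 20 of fatty acid and lipid synthesis, with 2 within GRC327. The other was Cers2 (−0.87 ± 0.21, 0.0074), a ceramide synthase, with 0.064 without 1 µM replicate 3 and 0.14 without 0 µM replicate 2. Among 22 NRF2 targets 6 were lower, in both fits, and 20 stood below 0, but 1 without 0 µM replicate 1 and 3 without 1 µM replicate 3. Slc7a11, the cystine transporter, was the steepest of these, at 826 and 1270.2 CPM, then 722 CPM in GRC321 and 329 and 301 CPM in GRC327 (−1.49 ± 0.32, 0.0015), with 0.1 without 0 µM replicate 2. Of 24 genes of the unfolded protein and ATF4 response, 3 were lower and none higher with all libraries, with Slc7a11 counted here again. Within GRC327, 2 were lower and 1 higher, and 1 was lower without 1 µM replicate 3 or either 0 µM library. By edgeR no gene was called among 23 of sterol synthesis with all libraries or within GRC327. Their median with all libraries was 0.18, and 2 stood below 0. There were 4 at an unadjusted p under 0.05 and 1 called higher by DESeq2. The lowest adjusted p by edgeR was at Mvd (0.83 ± 0.27, 0.063). Without 1 µM replicate 1, edgeR called 1 sterol gene higher. Against all 0 µM libraries of the series 8 sterol genes were higher and none lower, where 7.66% of all genes were higher.

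The genes closest to the compound's known action did not pass. Tyms, which encodes thymidylate synthase, was at 9.88 and 10.6 CPM at 0 µM and at 19.8, 7.65 and 11.7 CPM at 1 µM. The groups overlapped, the GRC321 library was the highest, and the change was −0.01 ± 0.23, with a 95% interval from −0.48 to 0.45 (adjusted p = 0.99). Dpyd, which encodes the enzyme that breaks the drug down, was at 19.2 and 13.8 CPM and then at 15.8, 15.6 and 14.3 CPM, a change of 0.00 ± 0.29, with an interval from −0.59 to 0.59. By edgeR none of 21 thymidylate and folate genes, 20 pyrimidine genes, 16 genes of uracil and base excision repair or 40 genes of ribosome synthesis and RNA processing was called in either fit. Their medians were −0.06, 0.01, −0.04 and −0.01. At an unadjusted p under 0.05 there were 2, 3, 3 and 3. DESeq2 called 1 repair gene lower and 1 ribosome synthesis gene higher. Ung, which removes uracil from DNA, had the smallest p of its list, going from 9.12 and 7.41 CPM to 3.58, 4.76 and 3.21 CPM (−1.06 ± 0.33, 0.055).

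Among 37 genes of replication and mitosis 31 stood below 0 and 5 were called lower, 4 within GRC327 and 7 by DESeq2, with a median of −0.51. There were 19 at an unadjusted p under 0.05, and 20 were lower against all 16 0 µM libraries, where 8.49% of all genes were. Without 0 µM replicate 1 none of the 37 was called. Cenpf, a kinetochore gene, was at 53.3 and 42.3 CPM and then at 11.3, 25.4 and 19.4 CPM (−1.11 ± 0.25, adjusted p = 0.0023), with 0.076 without that library. Ccnd1, the cyclin of the G1 phase, was at 60.8 and 38.7 CPM and then at 20.6, 17 and 26.9 CPM (−1.17 ± 0.23, 0.00059), with 0.11 without it. In these genes the treated libraries lay below both 0 µM libraries, and 0 µM replicate 1 was the higher of the pair. Of 30 p53 targets 1 was called lower, in both fits, a share near the 3.34% of all genes. It was Btg2, an antiproliferative gene (−0.89 ± 0.26, 0.032), and it lost the call without 1 µM replicates 2 (0.27) or 3 (0.095) or 0 µM replicate 2 (0.42). The 20 apoptosis genes had a median of −0.01 and the 13 genes of the mitochondrial genome a median of 0.02. Against the compound's own 0 µM libraries none was called by edgeR or DESeq2, and 3 and 0 had an unadjusted p under 0.05. Against all 16 0 µM libraries 2 apoptosis genes were higher and 1 lower, where 7.66% and 8.49% of all genes were.

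**Figure D3:**
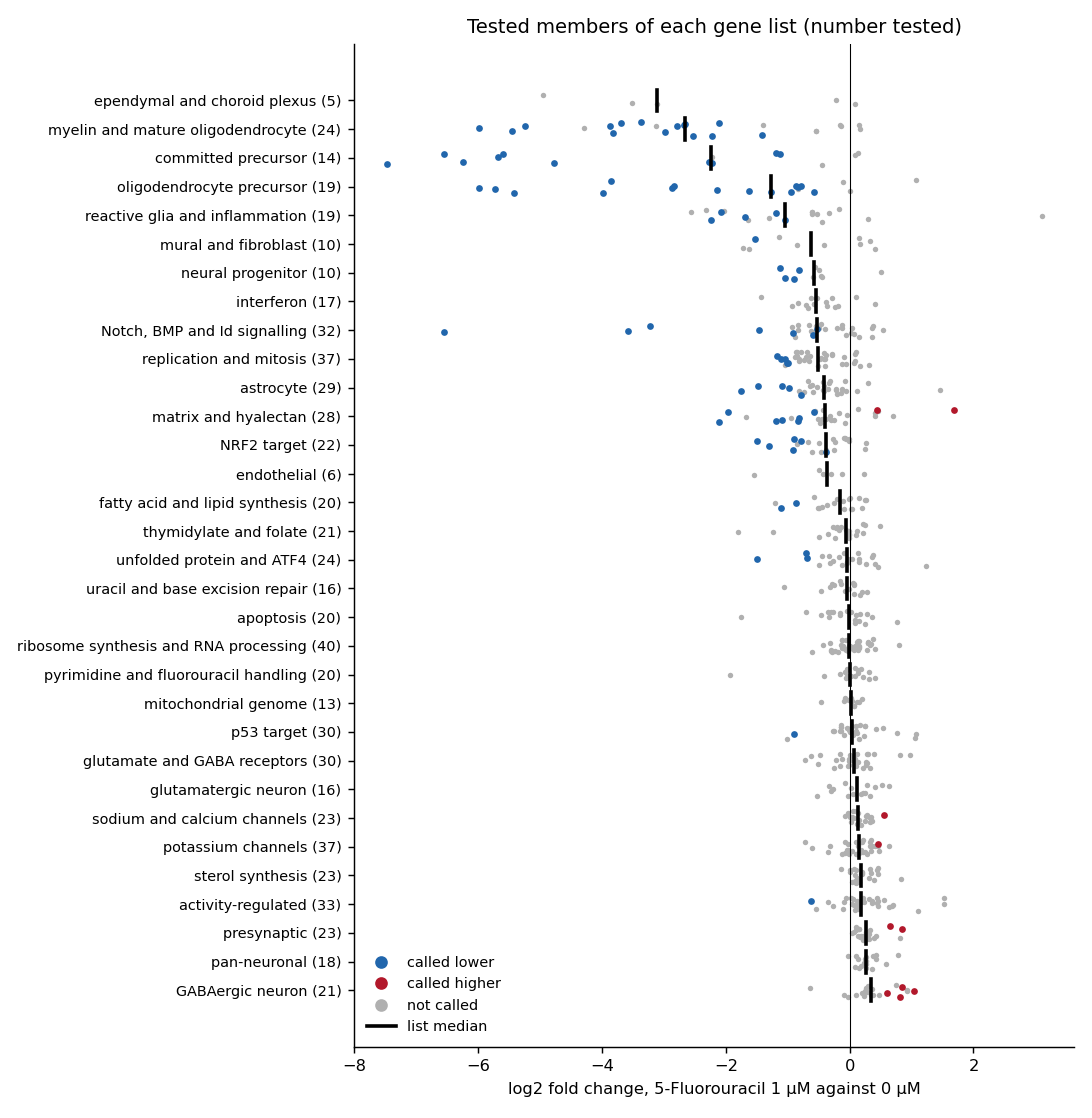
Log2 fold change at 1 µM for the tested members of each gene list with at least 5 of them, with the number tested in brackets. Blue points were called lower, red points called higher and grey points not called, and the black bar is the list median. The lists of the oligodendrocyte lineage spread far to the left, and those of neurons and synapses sit slightly right of 0.

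None of 18 pan-neuronal genes, 16 of glutamatergic neurons or 30 receptors for glutamate and GABA was called by edgeR with all libraries, and their medians were 0.26, 0.12 and 0.06. At an unadjusted p under 0.05 there were 6, 4 and 5, and DESeq2 called 1 pan-neuronal gene and 1 receptor higher. In these lists, in that order, 1, 6 and 14 genes stood below 0. Against all 16 0 µM libraries 5, 2 and 3 were higher and 0, 1 and 1 lower, where 7.66% of all genes were higher. Within GRC327 alone, 1 receptor gene was higher and 1 lower. Elavl3, an RNA-binding protein gene of neurons, was at 77.6 and 67.7 CPM, then 75.7 CPM in GRC321 and 98.4 and 110 CPM in GRC327. It stood at 0.43 ± 0.14 (adjusted p = 0.065) with all libraries and was called within GRC327 (0.53, 0.012). Presynaptic genes had 2 of 23 higher in both fits, none lower, and a median of 0.26, beside 0.691% of all genes called higher. None of the 23 stood below 0, 10 had an unadjusted p under 0.05, and 14 were higher against all 16 0 µM libraries, where 7.66% of all genes were. Cplx1, a complexin that clamps vesicle fusion, went from 344 and 360 CPM to 546, 510 and 589 CPM (0.65 ± 0.12, 0.00019). Vamp1, a synaptobrevin, went from 16.3 and 17.1 CPM to 32.8, 37.4 and 24.9 CPM (0.84 ± 0.16, 0.00036). Both held in every fit that left out a library, with all treated libraries above both 0 µM libraries.

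Of 21 GABAergic genes tested, 4 were called higher and none lower, with a median of 0.35, 3 were higher within GRC327, and the background of genes called higher was 0.691%. Without 0 µM replicate 2 a single one passed. Gad1, which makes GABA, went from 209 and 177 CPM to 351, 328 and 363 CPM (0.81 ± 0.18, adjusted p = 0.0031), all treated libraries lying above the 212 CPM that was the highest of the 16 0 µM libraries. Slc32a1, which loads GABA into vesicles, went from 70.0 and 50.4 CPM to 88.8, 118 and 95.1 CPM (0.85 ± 0.19, 0.0026). Maf, a factor of cortical interneurons, went from 8.58 and 6.70 CPM to 22.8, 14.9 and 14.9 CPM (1.03 ± 0.21, 0.00064). Without 0 µM replicate 2 the adjusted p values of Gad1, Slc32a1 and Maf were 0.12, 0.19 and 0.066. Erbb4, the neuregulin receptor of interneurons, changed by 0.61 ± 0.17 (0.021), with 0.18 without 1 µM replicate 3 and 0.33 without 0 µM replicate 1. Against all 16 0 µM libraries 13 of the 21 were higher, where 7.66% of all genes were. CPM are shares of a bulk library. A rise of these or of the presynaptic genes therefore cannot be told apart from a larger share of neuronal RNA.

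Among ion channels, 1 of 23 sodium and calcium channel genes and 1 of 37 potassium channel genes were called higher, and 1 of each list within GRC327. The background of genes called higher was 0.691%. In these lists 2 and 13 genes stood below 0. Against all 16 0 µM libraries 8 and 10 were higher and 0 and 1 lower, where 7.66% of all genes were higher. Cacna2d2, a calcium channel subunit, went from 56.4 and 53.5 CPM to 63.1, 88.4 and 80.8 CPM (0.56 ± 0.16, adjusted p = 0.031), was not called within GRC327 (0.057), and kept its call only without 1 µM replicate 1, the other 4 fits giving 0.099 to 0.24. Kcna6, a potassium channel, went from 120 and 130 CPM to 149, 155 and 205 CPM (0.46 ± 0.12, 0.013), with 0.32 without 1 µM replicate 3 and 0.17 and 0.054 without 0 µM replicates 1 and 2. Activity-regulated genes had 1 of 33 lower and none higher in both fits, a share near the 3.34% of all genes called lower. That gene, the pentraxin gene Nptx2, was at 51.4 and 42.9 CPM and then at 22.8, 25.3 and 35.8 CPM (−0.62 ± 0.16, 0.016), with 0.21 without 1 µM replicate 2 and 0.23 without 0 µM replicate 1.

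Further genes among the largest rises belonged to no list and were of low to moderate level. Galntl6, a glycosyltransferase gene, went from 3.80 and 3.82 CPM to 7.46, 9.20 and 11.1 CPM (1.35 ± 0.27, adjusted p = 0.00062). St8sia2, which adds polysialic acid to the adhesion protein NCAM, went from 21.2 and 23.2 CPM to 26.1, 37.0 and 47.9 CPM (0.96 ± 0.18, 0.0003). Clec2l, a lectin-like gene, went from 22 and 21.2 CPM to 31.8, 35.6 and 49.1 CPM (1.01 ± 0.20, 0.00055). All 3 held in each fit that left out a library. The 0 µM libraries of the series reached 40.7 CPM for Clec2l, so 2 of its 3 treated libraries lay within their range. Fgd1, an exchange factor gene whose model overlaps Tsr2, had the largest fitted rise of those named (2.48 ± 0.60, 0.0072). Its own 0 µM libraries, at 2.20 and 0.940 CPM, were at the low end of the 0.940 to 11 CPM of all 16, and its treated libraries, at 2.90, 8.38 and 9.13 CPM, lay inside that range. Its change was 0.28 (0.71) against all 0 µM libraries, −0.52 in the GRC321 library, and not called without 0 µM replicate 2 (0.22).

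**Figure D4:**
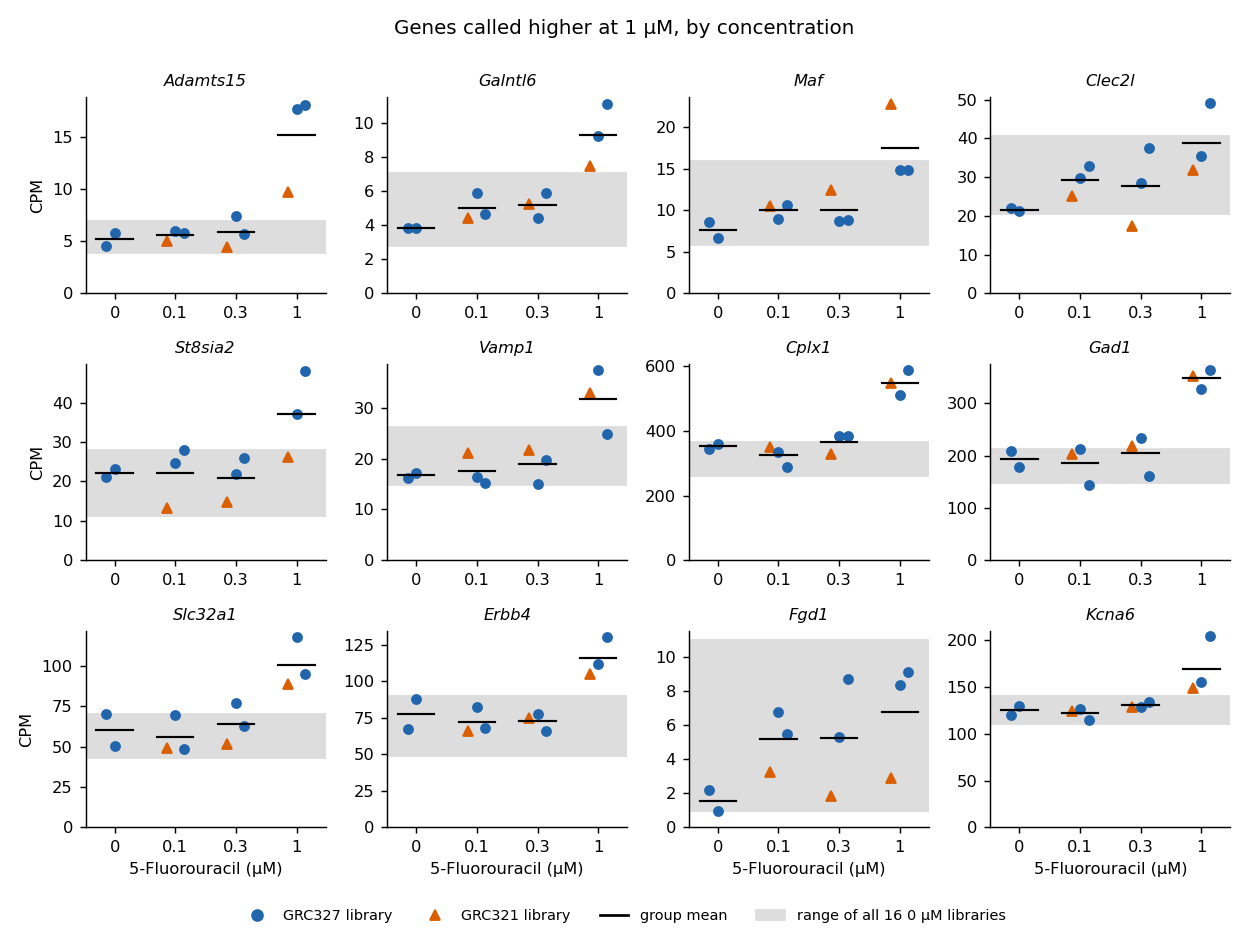
CPM for 12 genes called higher at 1 µM, in every 5-Fluorouracil library by concentration, with symbols, bars and the grey band of the 16 0 µM libraries as in the plot of oligodendrocyte genes. The libraries at 1 µM lie above the band for Adamts15, Galntl6, Cplx1, Gad1, Slc32a1, Erbb4 and Kcna6, and inside it for Fgd1.

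Cytosine arabinoside, a cytidine analog that stops DNA synthesis, was given at the same 1 µM and had 3 libraries at 0 µM and 3 at 1 µM of its own. Against them it changed 5520 of 15343 genes (36.0%), 2544 higher (16.6%) and 2976 lower (19.4%). Of the 513 genes lower with 5-Fluorouracil, 459 were also lower with cytosine arabinoside, which is 89.5% of the first list and 15.4% of the second. Of the 106 higher with 5-Fluorouracil, 60 were also higher (56.6% and 2.36%). The difference of the 2 effects was tested in the same model and called in 1984 genes (12.9%), with 5-Fluorouracil above in 1325 (8.64%) and below in 659 (4.3%). Within GRC327 alone it was called in 1377 of 15402 (8.94%), above in 963 (6.25%) and below in 414 (2.69%). Of the 513 genes lower with 5-Fluorouracil, 233 differed, and in 210 of these the cytosine arabinoside effect lay below.

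The compounds differed in the precursor and committed lists and little in the myelin list. In the precursor list the medians were −1.27 with 5-Fluorouracil and −3.43 with cytosine arabinoside, and the difference was called in 13 of 19 genes, 12 of them less lowered by 5-Fluorouracil. Olig2 changed by −1.63 with 5-Fluorouracil and −6.12 with cytosine arabinoside, a difference of 4.50 (95% interval 3.71 to 5.28, adjusted p = 6.2e-13). In the committed list the medians were −2.24 and −5.11, and 7 of 14 differed. Among 24 myelin genes 15 were called lower with 5-Fluorouracil and 20 with cytosine arabinoside. The medians were −2.66 and −2.73, and the difference was called in 1 of 24. For Mbp it was 0.28 (−0.79 to 1.35) and for Myrf −0.04 (−0.62 to 0.54).

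Astrocyte and activity genes differed between the compounds in most members of their lists. Over all genes 19.4% were lower and 16.6% higher with cytosine arabinoside, and 12.9% differed between the compounds. With cytosine arabinoside 26 of 29 astrocyte genes were lower, with a median of −3.37, and the difference was called in 26, all with 5-Fluorouracil above. Aqp4 changed by −6.65 with cytosine arabinoside, a difference of 5.56 (adjusted p = 1.7e-12). Of 37 genes of replication and mitosis 27 were lower with cytosine arabinoside and 21 differed, again with 5-Fluorouracil above, among them Top2a, a DNA topoisomerase of dividing cells, by 5.10 (4.1e-14). Of 33 activity-regulated genes 32 were higher with cytosine arabinoside and 25 differed, all with 5-Fluorouracil below. Fos, an early response gene, was at 5.17 and 6.52 CPM with 0 µM and at 3.78, 7.34 and 5.05 CPM with 1 µM 5-Fluorouracil, so that the groups overlapped, and the difference of the effects was −5.18 (3.5e-08). Acan, the proteoglycan aggrecan of the nets around some neurons, differed by −4.86 (4.2e-15), having risen with cytosine arabinoside by 4.56 and stood at −0.30 (0.67) with 5-Fluorouracil. GABAergic genes were higher in 16 of 21 with cytosine arabinoside, and Gad1 differed by −1.53 (2.2e-06).

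In a smaller set of genes the 5-Fluorouracil effect lay beyond that of cytosine arabinoside in its own direction, in some with opposite signs. Of the genes lower with 5-Fluorouracil, 23 differed with its effect below that of cytosine arabinoside. In this set Pcdh15 changed by −2.88 beside −1.61 (adjusted p of the difference = 0.0018) and Sema3d by −3.54 beside −1.61 (0.00034). Btg2 and Nptx2 fell with 5-Fluorouracil and rose with cytosine arabinoside, by 0.91 and 1.02, and differed by −1.80 (6.4e-05) and −1.64 (6.1e-08). Their falls were the fragile calls described above. St8sia2 rose with 5-Fluorouracil by 0.96 and fell by 1.05 with cytosine arabinoside, a difference of 2.01 (1.1e-08). Vamp1 and Clec2l, higher with 5-Fluorouracil, stood at 0.21 (0.24) and 0.22 (0.34) with cytosine arabinoside, and differed by 0.63 (0.038) and 0.79 (0.035).

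**Figure D5:**
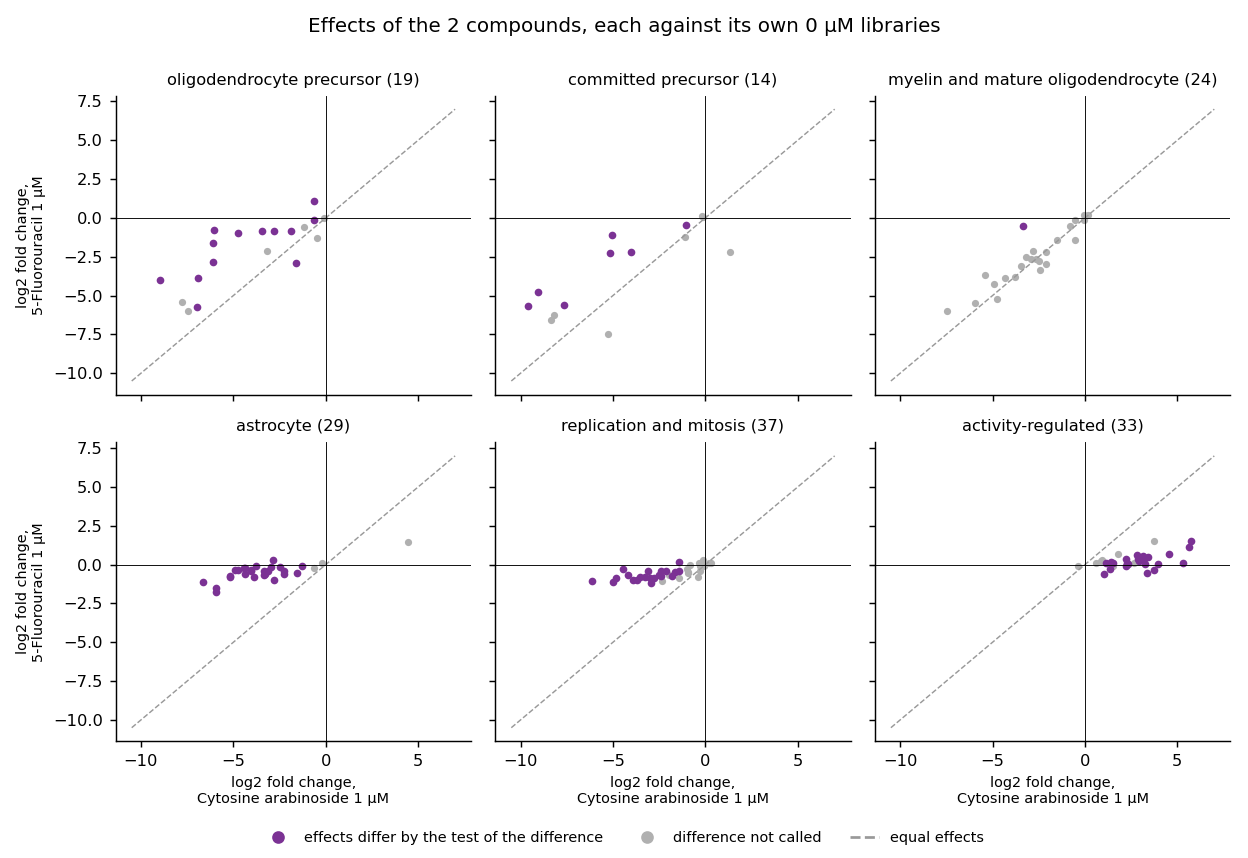
Log2 fold change at 1 µM 5-Fluorouracil (vertical axis) against that at 1 µM cytosine arabinoside (horizontal axis), each against its own 0 µM libraries, for the tested members of 6 lists. Purple points differed by the test of the difference and the dashed line marks equal effects. Myelin genes follow the line, while the astrocyte, replication and activity genes lie closer to 0 for 5-Fluorouracil than for cytosine arabinoside.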

How the data were processed

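Gene counts of polyA-selected libraries from 71 pools of rat cortical cultures were used. The authors' deposited table holds estimated counts per gene (20.6% of values not whole), made with STAR and Partek per the submitters' processing notes. No label or note names their versions, the genome build or the counting rules. The deposited CPM values served only for the limma alternative. Counts were rounded, filtered with filterByExpr (minimum count 10), scaled by TMM and tested with edgeR 4.0.16 (R 4.3.3) in 1 quasi-likelihood model of all 71 libraries, with 31 columns and 40 residual degrees of freedom. The columns were compound and concentration, plus a project term per compound. The same test was run on the 47 GRC327 libraries. Intervals of fold changes are 95% intervals from the SE, and those of ratios of counts cover counting error only. Total counts of 9.32 M to 16.49 M limit the precision of low genes. Alternatives used limma 3.58.1, DESeq2 1.42.0, other filters and controls, and leaving out each library. The code was tested on simulated data.

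Genes were named by rule: the 12 largest falls and 12 largest rises with an average log2 CPM of at least 2, called in both fits with the same sign, up to 6 called members per list by p, or the 2 with the smallest p where none was called, the 12 genes that differed most from cytosine arabinoside, and Tyms and Dpyd. Others named were members of the described lists or are said to be chosen after their values were seen. The comparison and the lists were chosen with earlier results of these data known.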

Additional observations from a re-analysis of the deposited data

How the results depend on the processing

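The count of 39 of 56 oligodendrocyte genes called lower ranged from 28 to 42 over all settings. The 619 calls became 274 without a project term, 2477 against all 16 0 µM libraries and 228 for the GRC321 library alone, and 346 to 654 when each library was left out. The 106 higher genes became 19, 1175 and 63 under those same 3 settings, 58 with no filter, 69 with limma at a pseudocount of 0.1, 198 with DESeq2, and 39 to 112 with a library left out. The 513 lower genes became 255, 1302 and 165, and 298 to 542 with a library left out. The 1984 genes that differed from cytosine arabinoside became 925 without a project term and 1430 to 2195 with a library left out. Fgd1 reversed, to −0.52, in the GRC321 library. The cause was not tested. Of the 118 genes named by rule 79 were called, and 36 of them in all 5 fits without a library. No paired analysis was possible because the labels carry no replicate numbers shared between groups.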
